A study of Mus musculus with 2 samples.

Results

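Nucleotide excision repair genes whose products work beside the general transcription factor TFIIH were compared between activated mouse T cells with and without triptolide. The members were 10 genes chosen as repair partners of TFIIH, namely Ercc1, Ercc4, Ercc5, Ercc6, Ercc8, Xpa, Xpc, Ddb1, Ddb2 and Rad23b, out of 18193 genes on the arrays. All 26 probe sets assigned to exactly 1 of these symbols were used. Primary mouse T cells were stimulated with antibodies against CD3 and CD28 in both groups, and 1 group also received triptolide at 50 ng/ml. Each group was measured on 1 Affymetrix array, and the labels give an 18 h culture of the purified cells but no strain, age, number of animals or length of the triptolide exposure. A single array stands for each group, which allows no test and no error across cultures, so every difference given is one between these arrays.

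Nucleotide excision repair cuts out bulky DNA lesions such as those made by ultraviolet light. Damage is found either anywhere in the genome by XPC with RAD23B and by the DDB1-DDB2 complex, or at a stalled RNA polymerase II by the Cockayne syndrome proteins CSB (Ercc6) and CSA (Ercc8). TFIIH then opens the DNA, XPA checks the lesion, and the nucleases XPG (Ercc5) and XPF-ERCC1 (Ercc4 and Ercc1) cut on either side. Triptolide is a plant diterpenoid that binds XPB (Ercc3), a TFIIH subunit used in transcription and in this repair pathway.

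No member differed by 2-fold or more in either direction. The signal of Ercc5 was 1.98-fold higher with triptolide, just short of that rule, and those of Xpc, Ddb1 and Xpa were 1.79-, 1.44- and 1.29-fold higher. Rad23b, Ercc8 and Ercc1 were 1.35-, 1.28- and 1.16-fold lower, Ddb2 and Ercc4 lay within 1.08-fold, and Ercc6 was not detected. Detection required a signal over a background floor of 118 on 1 array or both, and the brightest probe set stood for its gene. Of the 9 detected members, 0 passed 2-fold upwards and 0 downwards, against 5.63% higher, 12.5% lower and 18.1% in either direction among all 10968 detected genes. At a 1.5-fold rule, added after the values were seen, 2 members (Ercc5 and Xpc) were higher and none was lower, against 13.4% higher, 26.9% lower and 40.3% in either direction among all detected genes. With 9 members, these counts do not set the group apart from all detected genes.

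The median log2 ratio of triptolide over stimulated was 0.11 for the detected members and -0.16 for all detected genes. Ratios of 5 members were above 0 and those of 4 below 0, against 4363 above and 6603 below among all 10968 detected genes. Of the members, 6 lay above the median of all detected genes. The interquartile range of all detected genes ran from -0.62 to 0.27 in log2 ratio, and 5 of the members were inside it and 4 above it. The lowest members thus sat near the centre of the distribution and the highest near its upper shoulder.

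**Figure D1:**
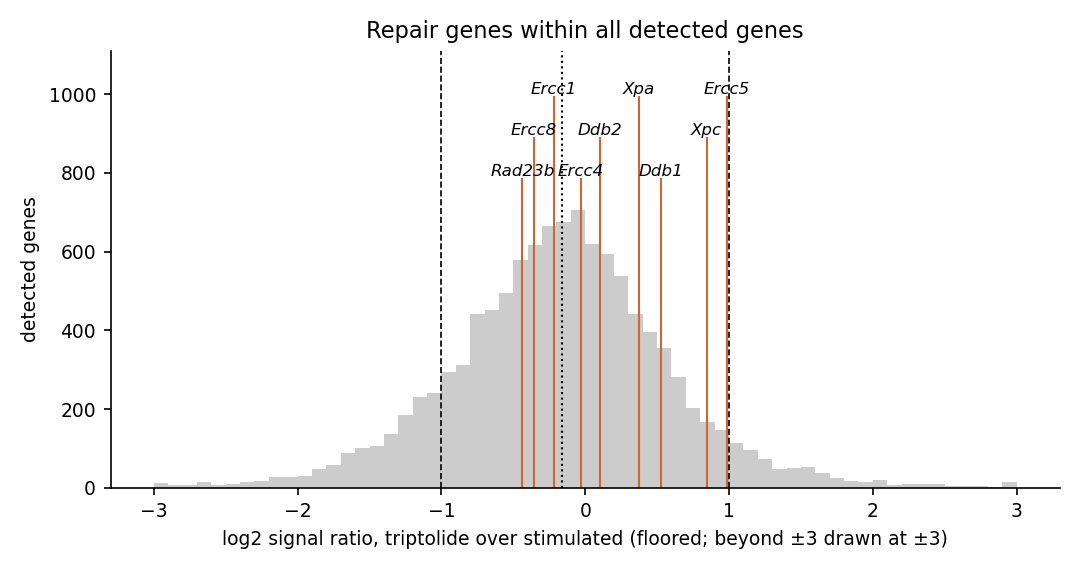
The grey histogram counts the 10968 detected genes by log2 signal ratio, triptolide over stimulated, with the dotted line at their median of -0.16 and dashed lines at 2-fold. The orange lines mark the 9 detected repair genes, which run from Rad23b at -0.44 to Ercc5 at 0.99, all inside the 2-fold lines.

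Array medians and cell identity were compared beside these ratios. The median signal over 45037 probe sets was 95.5 without and 87.6 with triptolide. Both medians lay under the floor of 118, which 44.9% and 42.2% of probe sets exceeded, so they do not measure total RNA. All 9 T cell markers with a probe set of their own were detected, and their summed signal was 55471 without and 38808 with triptolide. Of these markers 7 were lower, while Cd3e (2881 to 3962) and Cd3g (3801.5 to 4293) were higher. Summed signals of B cell markers were 4945 and 3280 (6 of 7 detected, Pax5 under the floor on both arrays), with Ighm, which makes up most of the sum, at 3482 and 1805 and Cd79a going the other way at 349 and 674. Those of myeloid markers were 875 and 1191 (4 of 8 detected). Those of natural killer cell markers were 501 and 994 (Klrd1 detected, Ncr1 and Klra1 under the floor), and those of neutrophil and erythroid markers 533 and 599 (3 of 6 detected). Among the latter, S100a8 was lower (177.8 to 42.2, under the floor), while Mpo (77.4 to 240.2) and Elane (74.6 to 170.4) were higher, from under the floor. All these sums also hold the signals of markers under the floor. Whether a change in cell make-up plays a part in any ratio here was not tested, and in bulk RNA fewer cells of a type and less RNA per cell cannot be told apart.

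The upstream sequences of the members at both ends of the order are shown because their ratios lie farthest apart, by 1.42 on the log2 scale. They are the 250 bases before the annotated start in RefSeq (build GRCm38.p6), 5′ to 3′ on the plus strand, which is the gene's own strand in both. Capitals mark a GC box (GGGCGG or its complement CCGCCC) or a CCAAT box (CCAAT or ATTGG).
Ercc5, chr1:44147494-44147743: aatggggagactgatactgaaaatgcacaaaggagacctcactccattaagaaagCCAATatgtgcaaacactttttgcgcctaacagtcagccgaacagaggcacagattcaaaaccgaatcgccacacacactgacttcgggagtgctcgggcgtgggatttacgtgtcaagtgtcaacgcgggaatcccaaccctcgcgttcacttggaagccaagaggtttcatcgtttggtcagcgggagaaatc
Rad23b, chr4:55349792-55350041: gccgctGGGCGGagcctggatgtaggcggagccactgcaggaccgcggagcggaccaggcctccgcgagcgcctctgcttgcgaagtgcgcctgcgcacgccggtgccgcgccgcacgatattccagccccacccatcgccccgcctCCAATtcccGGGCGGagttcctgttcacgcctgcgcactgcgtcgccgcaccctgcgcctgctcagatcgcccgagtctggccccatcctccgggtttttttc
The Ercc5 stretch held 1 CCAAT box and no GC box, with a GC content of 50.0%. The Rad23b stretch held 2 GC boxes and 1 CCAAT box, with a GC content of 70.8%. Of the 10 members, 8 had an entry in the RefSeq promoter table, all but Xpc and Ddb2. A GC box stood upstream of 5 of these 8 (Rad23b, Ercc1, Ercc8, Ercc6 and Ddb1), against 32.7% of 32851 upstream stretches of that length. A CCAAT box stood upstream of 5 of them (Ercc5, Xpa, Rad23b, Ercc8 and Ercc4), against 33.8%. No TATAAA and no ETS core (CCGGAAG), on either strand, stood upstream of any, against 12.4% and 6.91% of all stretches. Among detected members, GC boxes were upstream of Ddb1, with a higher ratio, and of Rad23b, Ercc8 and Ercc1, with lower ratios. Ercc5 and Xpa, with higher ratios, and Ercc4 had none. Whether a box goes with the ratio was not tested, and a match is a description of the letters only.

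Among the damage sensors of global repair, the partners XPC and RAD23B went opposite ways. Xpc encodes the protein that binds the distorted DNA first. Its only probe set read 123 without and 221 with triptolide, a log2 ratio of 0.84, and 92.3% of detected genes had a lower ratio. The first of these signals was barely above the floor. Across pairs whose dimmer probe set lay at 1 to 2 times the floor (769 genes), the SD between probe sets was 0.54 per probe set on the log2 scale. This spread covers probe behaviour and transcript variants, not cultures.

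Rad23b encodes the ubiquitin receptor that holds and stabilises XPC. Its brightest probe set read 4590 without and 3391 with triptolide, the second 1892 and 1341, and the dimmest measured one 200.4 and 156.4. All 3 were lower with triptolide, with log2 ratios of -0.44, -0.50 and -0.36, and the remaining one was under the floor on both arrays (92.6 and 92.4). Between probe sets over 16 times the floor the SD was 0.28 per probe set (506 genes), and the brightest Rad23b probe set, the only one of that brightness, differed between the arrays by more than that. The second Rad23b probe set lay at 4 to 16 times the floor, where the SD was 0.46 (1366 genes), close to its own ratio. The ratio was only 0.28 below the median of all detected genes, and 34.1% of them had a lower one. Xpc exceeded Rad23b by 1.28 in log2 ratio. Cetn2, which encodes centrin, another protein of the XPC complex, had a log2 ratio of -0.69 (1517.5 to 940), and its other measured probe set one of -0.66.

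The UV-DDB complex, which hands ultraviolet lesions to XPC, gave a bright and slightly higher Ddb1 and a Ddb2 that hardly differed. Ddb1, also the adaptor of the CUL4 ubiquitin ligases, read 2315 without and 3336 with triptolide on its only probe set (log2 ratio 0.53), and 84.8% of detected genes had a lower ratio. That ratio was larger than the SD of 0.28 between bright probe sets. Ddb2 encodes the subunit that touches the lesion. It read 1010.4 and 1087 on its brightest probe set (log2 ratio 0.11) and 788 and 741 on the other (-0.09). The Ddb2 probe sets thus went opposite ways by small amounts, so no direction is given. The log2 ratio of Ddb1 exceeded that of Ddb2 by 0.42. The ligase scaffolds that bind DDB1 had log2 ratios of 0.51 (Cul4a, 299 to 427) and -0.34 (Cul4b, 1041 to 820), with the other measured Cul4b probe set at -1.56. The ring subunit Rbx1 had a ratio of -0.05 (146.5 to 141.7).

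Ddb2 and Xpc are known as p53 targets in human cells, and textbook p53 targets were therefore set beside them. Of 9 detected genes of that list, 7 passed 2-fold upwards and 0 downwards, against 5.63% and 12.5% of all detected genes. The median log2 ratio of the list was 1.67, a pattern already known in these arrays when the list was made. The cell cycle inhibitor Cdkn1a read 838 and 4072 (log2 ratio 2.28), and Mdm2, the ubiquitin ligase for p53, read 1229 and 1169 (-0.07). By its brightest probe set Mdm2 was the lowest of the 9 and the only one below 0. Its other measured probe set had a log2 ratio of 0.03, so no direction is given for it. The 7 past 2-fold ran from 1.51 to 3.85. The Ddb2 ratio of 0.11 lay near that of Mdm2. The Xpc ratio of 0.84 lay above that of Mdm2 and below those of all 7 genes past 2-fold.

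**Figure D2:**
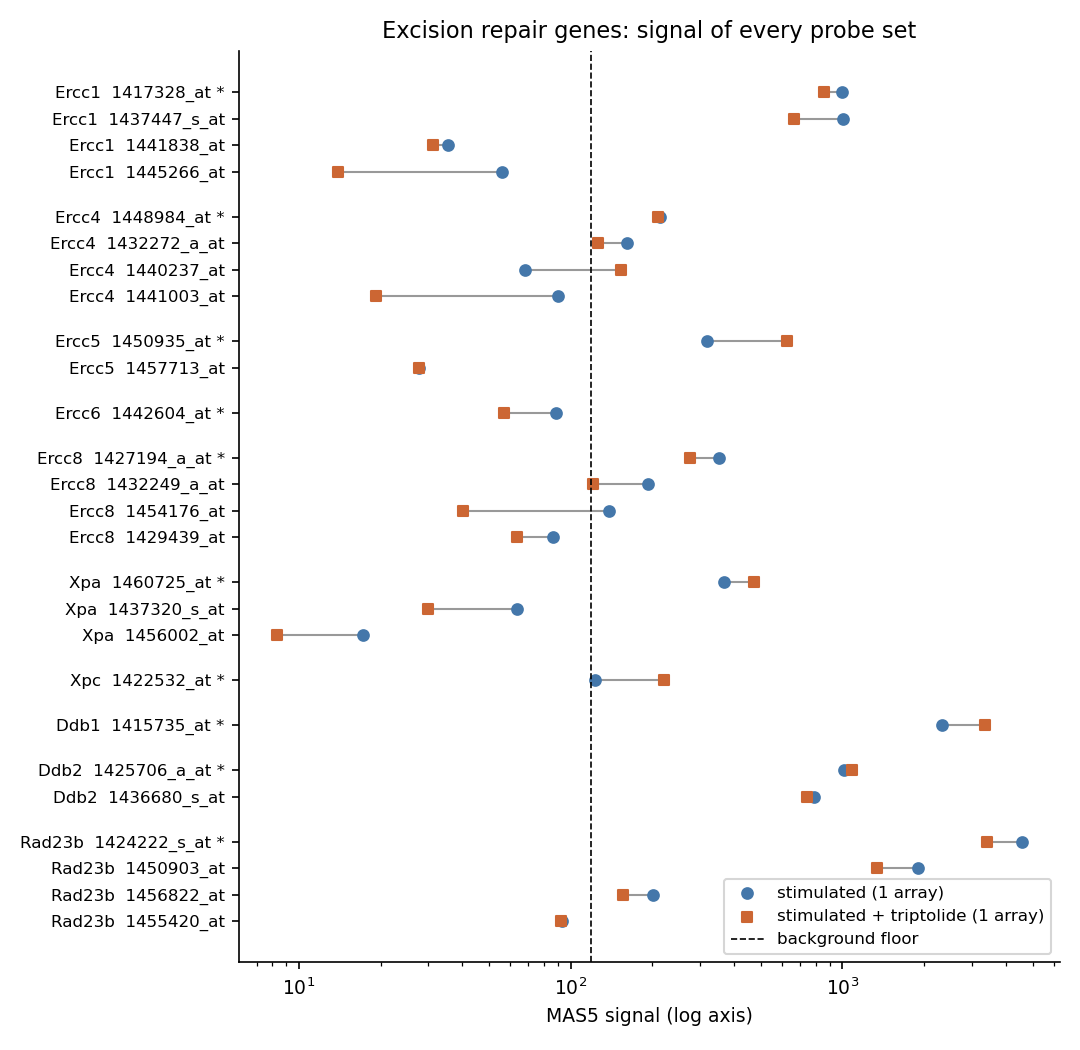
Each row is 1 of the 26 probe sets of the 10 repair genes, with its MAS5 signal on a log axis on the stimulated array (blue circle) and on the triptolide array (orange square), the dashed line at the floor of 118 and a star at the probe set that stands for the gene. Rad23b and Ercc1 keep the square left of the circle in every probe set above the floor, while Ercc5, Xpc, Ddb1 and Xpa have the square on the right in the only probe set each has above the floor.

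Of the members of transcription-coupled repair, Ercc6 was not detected and Ercc8 was lower by less than 2-fold on the probe sets measured on both arrays. Ercc6 encodes CSB, the ATPase that moves with RNA polymerase II. Its only probe set read 88.2 without and 57.1 with triptolide, under the floor on both arrays, so no fold is given. Ercc8 encodes CSA, the subunit that links CSB to a CUL4 ligase. It read 351 and 274 on its brightest probe set (log2 ratio -0.36) and 193 and 121 on the second (-0.67). Another Ercc8 probe set, which targets the same transcript record as the second, read 138.8 and, under the floor, 40.2, so that it was at least 1.17-fold lower. The last was under the floor on both arrays (86.5 and 63.3). Every Ercc8 probe set above the floor on either array was therefore lower with triptolide, by less than the SD of 0.56 between probe sets at 2 to 4 times the floor (1092 genes) in the brightest. Uvssa, whose product stabilises CSB at stalled polymerase, was 2.75-fold higher on its only measured probe set (299 to 824.5), past 2-fold unlike any member. Elof1 and Xab2, a polymerase-bound elongation factor and an XPA-binding protein, had log2 ratios of 0.44 and 0.31, and 1 of the 3 measured Xab2 probe sets was lower.

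Ercc8 starts back to back with Ndufaf2, which encodes an assembly factor of mitochondrial complex I. The stretch between both starts is shown because its neighbouring genes had ratios of opposite sign. It is 112 bases long, on the plus strand of GRCm38.p6, with Ercc8 transcribed to the right and Ndufaf2 to the left, and capitals mark GC and CCAAT boxes as before.
Ercc8 and Ndufaf2, chr13:108158626-108158737: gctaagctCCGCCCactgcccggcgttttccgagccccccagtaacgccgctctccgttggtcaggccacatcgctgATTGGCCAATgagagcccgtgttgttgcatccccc
It held 1 GC box and 2 CCAAT boxes, which adjoin on opposite strands and share no base. Ndufaf2 read 532 without and 1013.6 with triptolide on its only measured probe set, a log2 ratio of 0.93, against -0.36 for Ercc8. Xpc lies within 1 kb of Lsm3, which encodes an RNA-binding protein of the spliceosome. Lsm3 had a log2 ratio of -0.59 (3228 to 2144) against 0.84 for Xpc, again of opposite sign. Tmem43, also within 1 kb of Xpc, had the same sign as Xpc, with a log2 ratio of 0.57 (314 to 466). Ercc1 overlaps Cd3eap on the opposite strand, and Cd3eap had a log2 ratio of 0.16 (267 to 299.6). Acp2, which overlaps Ddb2, was under the floor with triptolide (179.2 to 101.3).

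XPA, the protein that verifies the lesion and gathers the other factors, gave a higher signal on the only probe set that was detected. It read 367 and 474.5, a log2 ratio of 0.37, with 79.1% of detected genes below it. Its other probe sets were under the floor on both arrays (63.6 and 30.0, 17.2 and 8.30) and give no fold. XPA works with RPA, which covers the undamaged strand. Rpa1, Rpa2 and Rpa3 had log2 ratios of 0.21, 0.60 and 0.30, with the second probe set of Rpa1 at -0.11.

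The nucleases that make the cuts did not share a direction. Ercc5 encodes XPG, which cuts on the 3′ side and also steadies TFIIH. Its brightest probe set read 317 without and 628 with triptolide, a log2 ratio of 0.99, and 94.2% of detected genes had a lower ratio. The other Ercc5 probe set was under the floor on both arrays (27.8 and 27.7). The ratio of 0.99 was larger than the SD of 0.56 between probe sets of that brightness, and it was 1.15 above the median of all detected genes.

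Ercc4 and Ercc1 encode XPF and its partner, which cut together on the 5′ side. Ercc1 read 995 and 854 on its brightest probe set (log2 ratio -0.22) and 1004.2 and 662 on the other measured one (-0.60). Its other probe sets were under the floor on both arrays. Ercc4 read 213.7 and 209 on its brightest probe set (-0.03) and 161 and 126 on the second (-0.35). Another Ercc4 probe set read 68.1, under the floor, and 153.3, a difference of at least 1.29-fold upwards, and the last was under the floor on both arrays (89.7 and 19.2). Ercc1 was thus lower on both measured probe sets, while the Ercc4 probe sets disagreed. Slx4, the scaffold that carries XPF-ERCC1 to crosslinks, had a log2 ratio of 0.19 (309 to 352).

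The 4 members with the highest ratios, Ercc5, Xpc, Ddb1 and Xpa, each had 1 measured probe set, so no second probe set shows their direction. The 5 other detected members had 2 or 3 measured probe sets each. Of the 15 member probe sets measured on both arrays, 5 were higher and 10 lower with triptolide. Counted by probe set, then, most readings were lower, whereas counted by gene 5 of 9 were higher. The 5 include Ddb2, whose probe sets disagreed. Probe sets of 1 gene are not independent readings, and the lower members had more of them.

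Other genes of the pathway were described by lists. Among all detected genes, 5.63% passed 2-fold upwards and 12.5% downwards. Of 13 detected genes that act with the members up to the incision, 1 (Uvssa) passed 2-fold upwards and 0 downwards, and the median log2 ratio was 0.27. The lowest of them were Cetn2 and Usp7, the deubiquitinase that works with UVSSA, at -0.69 and -0.61 (all 5 measured Usp7 probe sets lower). Rpa2 was the second highest at 0.60. Of 18 detected genes that fill and seal the gap, 2 passed 2-fold upwards and 4 downwards (median -0.31). The lower ones were the polymerase subunits Pole2 (2.99-fold), Pold2 (2.86-fold), Pold1 (2.52-fold) and Pold3 (2.06-fold). The 3 measured Pold3 probe sets ran from -1.04, the one used here, to -0.47 in log2 ratio. The higher ones were Polk, a repair and bypass polymerase, at 2.11-fold and Pole3, a histone-fold subunit, at 2.05-fold. Most of these genes also serve replication.

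Of 9 detected TFIIH subunits, 0 passed 2-fold upwards and 2 downwards, against 5.63% and 12.5% of all detected genes. The 2 were Mnat1 (714 to 169) and Ccnh (3200 to 1479) of the kinase module, and the median of the 9 was -0.08. The log2 ratios of Gtf2h5, Ercc3, Gtf2h3 and Ercc2 were 0.87, 0.81, 0.58 and 0.55, and those of Gtf2h1 and Gtf2h4 were -0.08 and -0.77. Cdk7, the kinase of that module, had a log2 ratio of -0.21 (764 to 660) and of -0.28 on its other measured probe set. The repair members, from -0.44 to 0.99, thus covered a narrower range than TFIIH, from -2.08 to 0.87.

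Other repair pathways are given for comparison, beside 5.63% past 2-fold upwards and 12.5% downwards among all detected genes. In base excision repair 0 of 15 detected genes passed 2-fold upwards and 3 downwards (median -0.26), with Polb 2.31-fold lower on its brightest probe set and the glycosylase gene Ogg1 at least 2.28-fold lower, and Fen1 and Mpg highest at 0.62 and 0.28. In mismatch repair 0 of 5 were higher and 1 lower (median -0.29), with Pms2 2.40-fold lower, Pms1 at -0.90 and Exo1 and Msh6 highest at 0.06 and -0.22. In homologous recombination and the Fanconi pathway 1 of 25 was higher and 5 lower (median -0.13), with Nbn 6.61-fold and Fancg 2.47-fold lower, Brip1 2.56-fold higher and Rad51c at 0.81. Brip1 read 118.7 without triptolide, barely above the floor. In end joining 0 of 7 passed 2-fold either way (median -0.15), with Xrcc6 at -0.91, Xrcc4 at -0.44, and Polm and Nhej1 highest with bounds of at least 1.40- and 1.25-fold. The median of the excision repair members, 0.11, was above those of these 4 lists, a difference between medians of a few genes that was not tested.

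**Figure D3:**
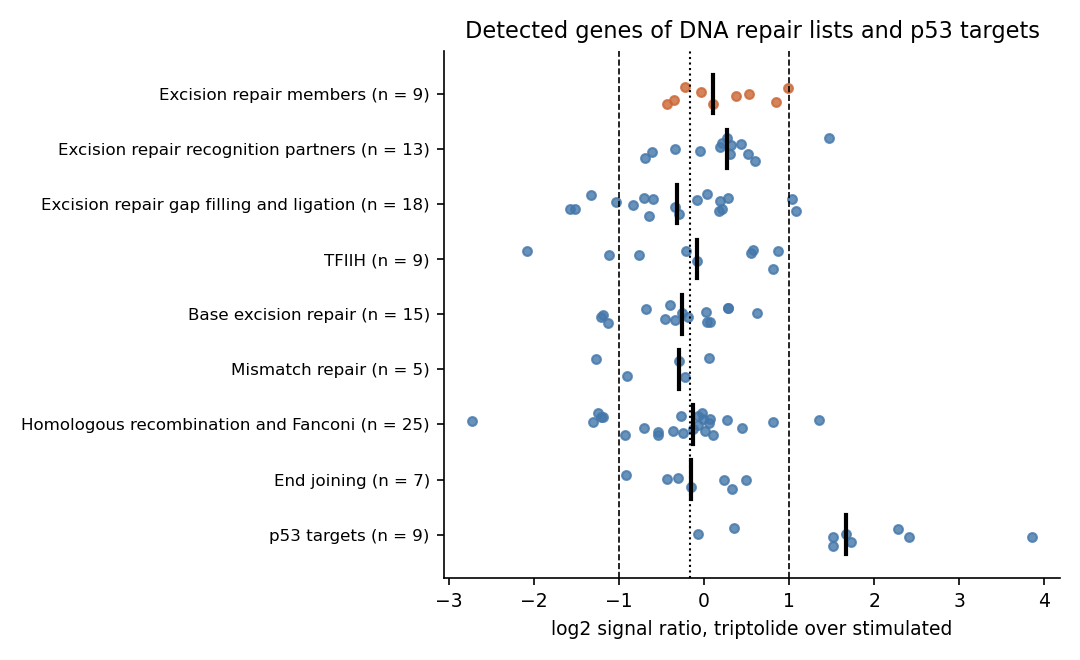
Each point is a detected gene at its log2 signal ratio, triptolide over stimulated, in rows for the repair members (orange), 7 other repair lists and p53 targets (blue), with vertical spread added only for legibility. Thick black bars are list medians, the dotted line is the median of all detected genes at -0.16 and dashed lines are at 2-fold. The repair members stay inside 2-fold, and 7 of 9 p53 targets lie to the right of it.

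Of the 9 detected members, 7 kept their sign in every setting that gave them a value, while the side of 2-fold on which Ercc5 lay depended on the scaling. Over the deposited setting and 9 alternatives Ercc5 ran from 0.82 to 1.21, Ddb1 from 0.37 to 0.68 and Xpa from 0.21 to 0.59, above 0 in all 10. The floors, the choices of probe set and the brightness filter left the ratios of Ercc5, Ddb1 and Xpa unchanged. Each of these genes has 1 measured probe set, well above the floor. Only the scalings and the pseudocount moved them, so their kept signs rest on fewer settings than 10. Rad23b ran from -0.60 to -0.31 and Ercc1 from -0.41 to -0.03, below 0 in all 10. The floors and the brightness filter left these 2 ratios unchanged as well, so their signs also rest on fewer settings than 10. Xpc (0.65 to 0.93) and Ercc8 (-0.52 to -0.12) kept their sign in all 9 settings that gave them a value, but some of these values are bounds. The stimulated Xpc signal lay under the floor with the 99th percentile floor and with the arrays divided by their medians. Without _a_at, _s_at and _x_at probe sets, Ercc8 (-0.23) rested on a probe set under the floor with triptolide. Ddb2 was below 0 in 1 of 10 and Ercc4 above 0 in 2 of 9 settings. Ercc5 passed 2-fold when the arrays were divided by their medians or quantile-normalised. In these settings the median of all detected genes was -0.05 and 0.0049, against -0.16 as deposited.

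**Figure D4:**
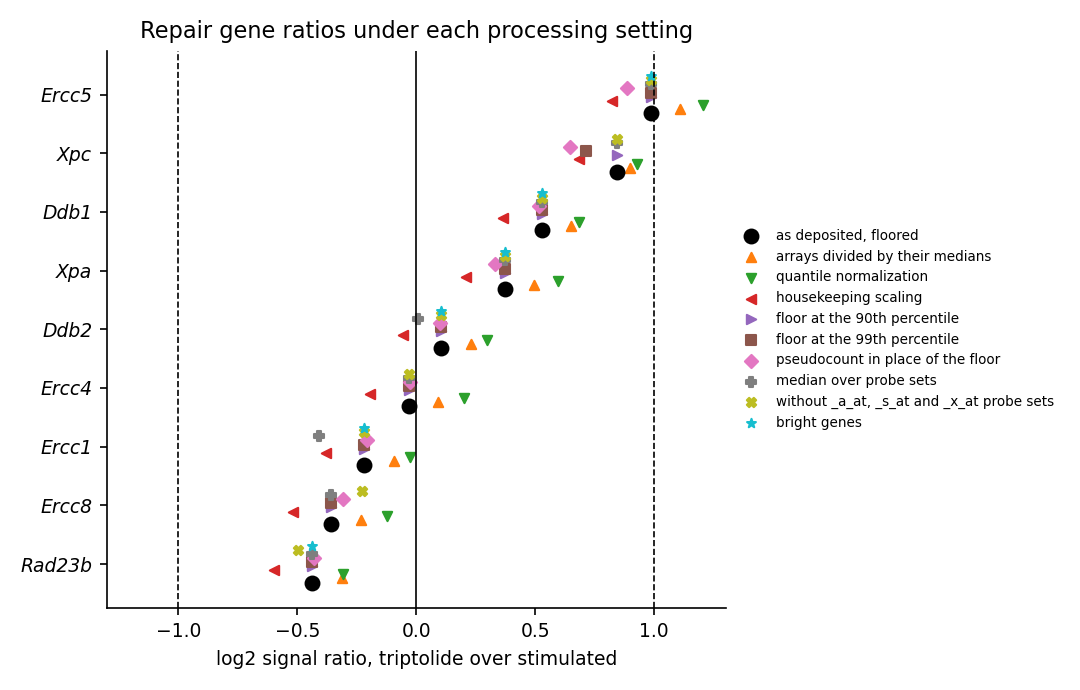
For each of the 9 detected repair genes, the symbols give the log2 signal ratio, triptolide over stimulated, under the deposited setting (black circle) and 9 alternatives (coloured symbols), with a line at 0 and dashed lines at 2-fold. Ercc5, Xpc, Ddb1 and Xpa stay right of 0 and Ercc1, Ercc8 and Rad23b left of it, while Ddb2 and Ercc4 cross it.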

How the data were processed

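The authors deposited linear MAS5 signal intensities, the tool being named in the submitters' processing notes; its version and scaling are not stated there. On both arrays the first 100 probe sets of the table had a 2% trimmed mean of 2000, against 383 and 340 over all probe sets, so ratios rest on a scaling to those 100. Detection calls were not used here.

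Of 45037 probe sets, 34945 had 1 symbol in the platform annotation, 932 several and 9160 none. Only the first kind was used, with 34741 named through RefSeq (GRCm38.p6). No probe set with several symbols held a member. The floor was the 95th percentile of 87 chemosensory receptor probe sets (107 and 118 on the arrays, the higher taken). Signals under it were set to it before log2 ratios, and a fold with 1 side at the floor is a bound. Each gene took the ratio of the probe set whose floored log2 signals had the highest mean.

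With 1 array per group no test was possible, and genes were counted at 2-fold. Named were all members and, of each repair list, the 2 highest and 2 lowest genes, beside all TFIIH subunits, Cdkn1a and Mdm2. Further pathway genes and the neighbours of members were named after their values were seen. Members and lists were chosen with earlier results of these data known. Alternatives were other scalings (array medians, quantiles, housekeeping genes), floors at the 90th and 99th percentile, a pseudocount of 50, other choices of probe set and only genes whose brighter signal was at least 4 times the floor. Calculations used Python 3.11.15 and pandas 2.3.3 and were tested on simulated data. The changes planted there were all larger than 2-fold and in genes at least 4 times the floor. Smaller changes, like those of the members, and changes in dimmer genes were not tried.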

Additional observations from a re-analysis of the deposited data

How the results depend on the processing

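No direction of a called member changed in any alternative, since no member was called as deposited. The count of members at least 2-fold higher was 0 as deposited, 1 (Ercc5) with the arrays divided by their medians, 1 (Ercc5) with quantile normalization, and 2 (Ercc5 and Xpc) under the 1.5-fold rule added after the data were seen. The count of members at least 2-fold lower stayed 0 in all of them. Over all detected genes, 1370 were lower as deposited, 899 with quantile normalization and 2955 at 1.5-fold, and 618 were higher as deposited and 1470 at 1.5-fold. Lower genes made up 68.9% of all genes past 2-fold as deposited, 58.2% with the arrays divided by their medians, 51.0% with quantile normalization and 79.8% with housekeeping scaling. The median log2 ratio of the members ran from -0.06 (housekeeping scaling) to 0.30 (quantile normalization), and it exceeded that of all detected genes by 0.17 to 0.46. No paired analysis was possible because each group has 1 array, and for the same reason no replicate could be left out. Signal over background limits Xpc, whose only probe set lies near the floor on the stimulated array, Ercc4 and Ercc8, whose dimmer probe sets lie near it, and Ercc6, which lies under it.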
